A study of Rattus norvegicus with 2 samples.

Results

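The genes described here encode chaperones and stress factors of the endoplasmic reticulum in the rat duodenum. They were chosen by name, as all probe sets annotated to Hspa5, Hsp90b1, Calr, Canx, Pdia3, Pdia4, Pdia6, P4hb, Ddit3 or Xbp1 on U34A, an Affymetrix array of rat oligonucleotide probes. The annotation gave 22 of the 8799 probe sets, for 9 of the 10 genes. Xbp1 had no probe set in this annotation, so its signal was not analysed and only its promoter window is described. The rule used names only and no measured value, but the members were chosen with earlier results of these data known. The series set 1 male Wistar rat held in an immobilization cage for 2 weeks against 1 male Wistar control rat housed without immobilization, in a metabolic cage, over the same period. Both animals were 15 weeks old, neither is described as carrying an allele or receiving an agent, and the labels mention no pooling. RNA from each duodenal mucosa was hybridised to 1 array, and the source is labelled as epithelial cells of the duodenum.

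The endoplasmic reticulum is where secreted and membrane proteins are threaded in, glycosylated, folded and joined by disulfide bonds. When unfolded protein builds up in it, sensors in its membrane start the unfolded protein response, which slows protein synthesis and raises the transcription of chaperone genes through the factors ATF6 and spliced XBP1. A further branch works through the kinase PERK and the factor ATF4 and can raise Ddit3, whose product CHOP favours cell death when the stress lasts. The duodenal mucosa holds many secretory cells, among them goblet and Paneth cells, and its enterocytes make large amounts of brush border and lipoprotein proteins.

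ATF6 and XBP1 are known to act at the endoplasmic reticulum stress response element, a promoter sequence shared by several of these genes and shown here for that reason. The RefSeq promoter windows of build GRCr8, which run from 250 bases before to 50 bases after each gene's start, were searched on both strands for CCAAT, followed by 9 free letters and CCACG, 19 letters of which 10 are fixed. The windows of 7 of the 10 genes are described, and none was found for Pdia3 and Pdia6. The element matched in 22 of 33469 windows (0.0657%), belonging to 21 of 27457 genes. These genes included Hspa5, Hsp90b1, Calr and Xbp1, with 5 matches between them. The matches are printed with 10 bases on either side, in the direction of the gene, and the capitals mark the fixed letters, which read CGTGG and ATTGG where the match lies on the opposite strand.
Hspa5, plus strand, chr3:38452963-38453001: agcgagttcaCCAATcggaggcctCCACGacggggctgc
Hsp90b1, minus strand, chr7:23012441-23012479: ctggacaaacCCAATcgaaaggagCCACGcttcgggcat
Hsp90b1, minus strand, chr7:23012337-23012375: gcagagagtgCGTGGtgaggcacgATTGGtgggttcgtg
Calr, plus strand, chr19:40213125-40213163: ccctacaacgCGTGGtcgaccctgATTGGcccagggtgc
Xbp1, plus strand, chr14:84604548-84604586: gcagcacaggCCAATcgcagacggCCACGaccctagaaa

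The match of Hspa5 began 43 bases before the gene's annotated start and that of Xbp1 65 bases before it. Those of Hsp90b1 began 176 and 72 bases before its start, and that of Calr lay farther out, at 232 bases. Pdia4 and Ddit3 had no exact match in their windows, but each held a stretch with 1 of the 10 fixed letters different, as did 1.41% of all windows when exact matches are counted in. The P4hb window differed at 3 or more of the fixed letters everywhere. Each arm of the element is common, since CCAAT alone was found on either strand in 37.5% of windows and CCACG in 31.6%, and both were found in the windows of all 7 genes. A second form of the element, ATTGG, any letter and CCACG, matched in 0.0508% of windows and in 0 of the 7. These matches describe letters in the windows and do not show that a factor was bound.

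The stretch of 130 bases before the Hspa5 start is shown because this gene is the classical target of the element. It covers chr3:38452886-38453015 of GRCr8 on the plus strand, with the fixed letters of the exact match in capitals. A TATA sequence stands at its end, directly before the annotated start, so distances refer to the annotation only.
Hspa5: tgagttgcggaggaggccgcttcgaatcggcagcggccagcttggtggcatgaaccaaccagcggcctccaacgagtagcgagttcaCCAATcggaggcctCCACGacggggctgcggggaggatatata

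Signals of the chaperone and stress genes differed little between the 2 rats. Of the 9 genes, 6 had a lower signal in the immobilized rat, beside 50.6% of all genes. After quantile normalization or loess this count was 5. Pdia4, a disulfide isomerase, was 1.43-fold lower (220.3 to 154.1 signal units), Ddit3 was 1.40-fold lower (153.2 to 109.6) and Pdia3 was 1.34-fold lower (1863.9 to 1393.4). Calr, Canx and Pdia6 had slightly higher signals, by 1.03-fold to 1.09-fold at their brightest probe sets. None of the 9 genes reached a 2-fold difference in either direction, beside 2.02% of 2524 genes at least 2-fold higher and 0.674% at least 2-fold lower. Signals are linear intensities after multiplication of the immobilized array by 1.016, a gene is represented by its probe set of highest mean signal unless stated, and the floor for a ratio is 39.9 signal units on both arrays.

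With 1 array for each condition there was no replicate check, so the differences cannot be compared with the variation among rats, and p-values are not given. Having so few arrays limits the precision throughout. Technical spread was taken from probe sets of the same gene, whose log2 ratios between the arrays had a technical SD of 0.31 (696 genes, 1570 probe sets). Error shared by all probe sets of a gene is not in this SD. Over the 6 members with several usable probe sets, 18 in all, this SD was also 0.31. All 13 villus enterocyte markers that had a probe set, such as Fabp2, exceeded the floor in both rats, so the markers of the labelled epithelium were present. In bulk tissue, fewer cells of a type and less RNA per cell cannot be told apart.

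**Figure D1:**
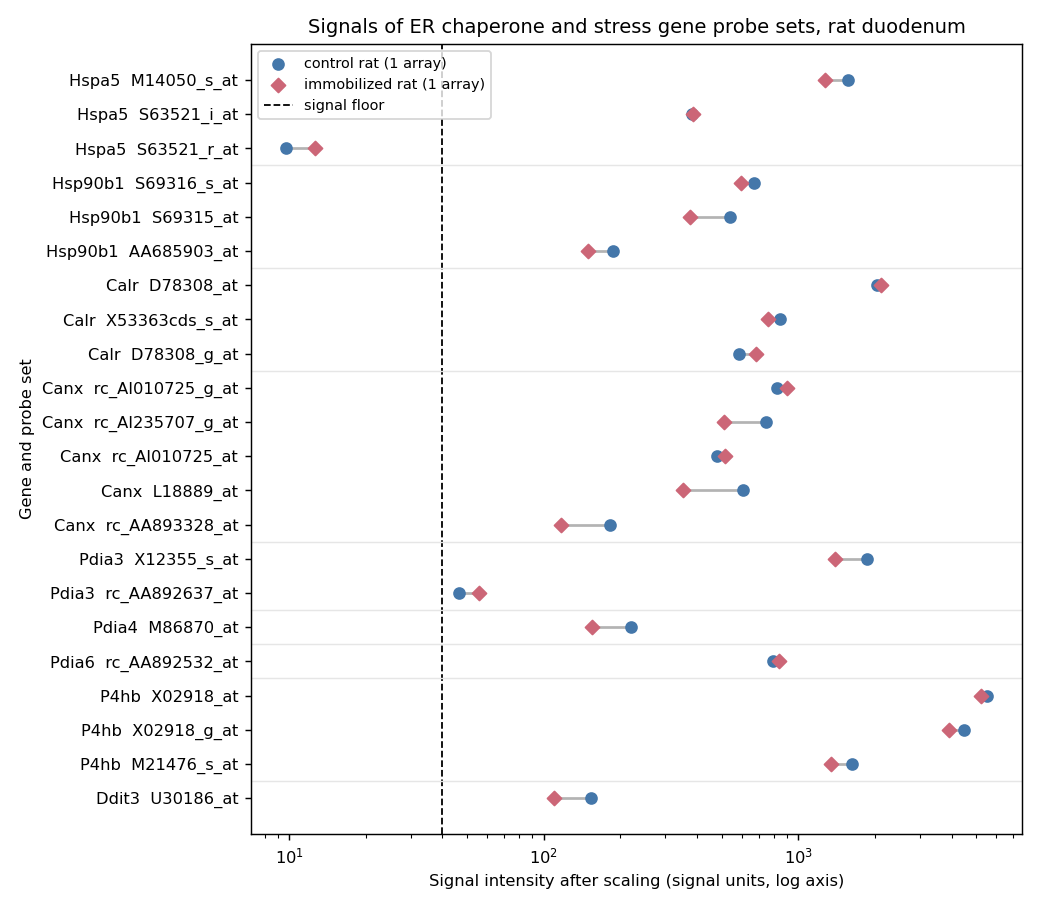
Signal intensity of each of the 22 probe sets in the control rat (circles) and the immobilized rat (diamonds), in signal units on a log axis, with the signal floor of 39.9 as a dashed line. Each point is 1 array and the grey bar joins the values of 1 probe set; the widest bar belongs to Canx L18889_at, and only S63521_r_at of Hspa5 lies under the floor.

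The lumenal chaperones had log2 ratios between -0.51 and 0.02. Hspa5 encodes BiP, the Hsp70 chaperone of the lumen, which also holds the stress sensors inactive while it is bound to them. Its probe set M14050_s_at had signals of 1573 in the control rat and 1269 in the immobilized rat, a log2 ratio of -0.31. The probe set S63521_i_at had 381.2 and 387.5, a log2 ratio of 0.02. Hspa5 was thus lower by 1 technical SD at the brighter probe set and nearly level at the other. The remaining probe set, S63521_r_at, stayed under the floor in both rats (9.7 and 12.6) and gave no ratio.

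Hsp90b1 encodes GRP94, the Hsp90 chaperone of the lumen, which folds a narrow set of clients including integrins and Toll-like receptors. Signals at its probe set S69316_s_at were 669.9 and 598.1, at S69315_at 537.8 and 376.9, and at AA685903_at 187.2 and 149.3, control rat first. All 3 probe sets were lower in the immobilized rat, with log2 ratios of -0.16, -0.51 and -0.33, and a mean of -0.33 ± 0.17 (SD over 3 probe sets, which are not animals). The brightest of the 3 lay closest to 0.

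The lectin chaperones bind freshly made glycoproteins through their sugar chains and pass them to disulfide isomerases. Calr encodes calreticulin, the soluble lectin, which also stores calcium in the lumen. The signal of D78308_at was 2037 in the control rat and 2105 in the immobilized rat, that of X53363cds_s_at 847.4 and 762.0, and that of D78308_g_at 586.6 and 679.7. The log2 ratios of 0.05, -0.15 and 0.21 lay on both sides of 0, with a mean of 0.04 ± 0.18 (SD over 3 probe sets), and all were within 1 technical SD of 0.

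Canx encodes calnexin, the membrane-bound counterpart of calreticulin, and its probe sets spanned the widest range of the 9 genes. On rc_AI010725_g_at the signals were 822.9 in the control rat and 899.2 in the immobilized rat, and on rc_AI010725_at 477.4 and 513.2. These share a source sequence and were slightly higher in the immobilized rat, with log2 ratios of 0.13 and 0.10. The other probe sets were lower there. L18889_at went from 608.0 to 353.9 (log2 ratio -0.78), rc_AA893328_at from 182.8 to 116.7 (-0.65) and rc_AI235707_g_at from 745.3 to 510.9 (-0.54).

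The range over the 5 Canx probe sets was 0.91 on the log2 scale, and 17 of 24 genes with at least 4 probe sets above the floor had a smaller one (median range 0.60). The mean over the 5 was -0.35 ± 0.43 (SD), whereas the brightest probe set alone had 0.13, so the sign of the Canx difference depended on the probe set taken. L18889_at and rc_AA893328_at were the only member probe sets at 1.5-fold, 1.72-fold and 1.57-fold lower. Over all 3401 named probe sets above the floor, 5.29% were at least 1.5-fold lower and 8.82% at least 1.5-fold higher, beside 2 and 0 of the 21 here.

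**Figure D2:**
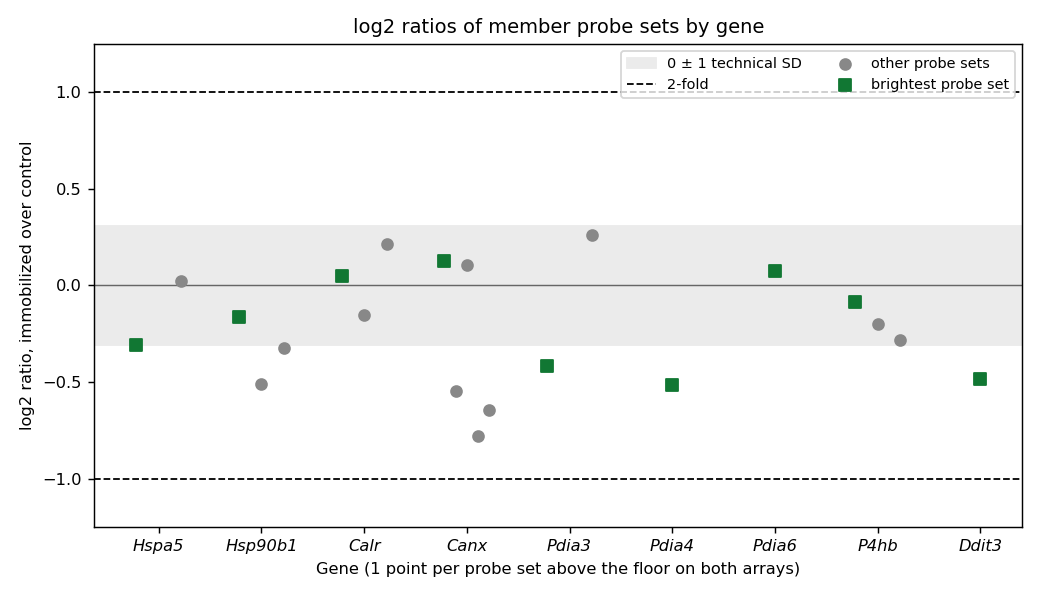
The log2 ratio of the immobilized over the control rat for each of the 21 probe sets above the floor, by gene, with the brightest probe set of a gene as a square and the others as circles. The grey band is 1 technical SD of 0.31 on either side of 0 and the dashed lines mark 2-fold; points of Canx lie on both sides of 0, from -0.78 to 0.13, while all points of Hsp90b1 and P4hb lie below it, the brightest P4hb point only without quantile normalization or loess.

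The disulfide isomerases make and rearrange the disulfide bonds of folding proteins. Pdia3, known as ERp57, works with calreticulin and calnexin on glycoproteins. Its probe set X12355_s_at had 1864 signal units in the control rat and 1393 in the immobilized rat, a log2 ratio of -0.42, below which lay 10.7% of the 2524 genes. The other, rc_AA892637_at, was close to the floor with 46.5 and 55.7, a log2 ratio of 0.26. The gap of 0.68 between them was wider than in 498 of the 543 genes with 2 probe sets above the floor.

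Pdia4, known as ERp72, had the lowest log2 ratio of the 9 genes, -0.52 at its only probe set, and 169 genes (6.70%) lay lower. Pdia6, known as P5, had 797.0 in the control rat and 839.8 in the immobilized rat, a log2 ratio of 0.08 at its only probe set. P4hb is the founding protein disulfide isomerase, also a subunit of prolyl 4-hydroxylase and of the microsomal triglyceride transfer protein that loads lipoproteins. Its signals were 5531 and 5211 at X02918_at, 4467 and 3894 at X02918_g_at, and 1633 and 1341 at M21476_s_at, control rat first. All 3 were lower in the immobilized rat, at -0.09, -0.20 and -0.28, with a mean of -0.19 ± 0.10 (SD over 3 probe sets), but the first was above 0 after quantile normalization or loess.

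Bright genes were lower on this array as a class, which bears on P4hb. Of 105 genes with a mean signal of 3000 or more, 82.9% had a log2 ratio below 0, with a median of -0.16, and P4hb at -0.09 lay above that median. After quantile normalization or loess, which remove such a trend, its brightest probe set had 0.02 and 0.04. The other P4hb probe sets stayed below 0 in the same settings, X02918_g_at at -0.09 and -0.10 and M21476_s_at at -0.31 and -0.27. Among the 304 genes from 1000 to 3000 signal units, which hold Calr, Hspa5 and Pdia3, the median was -0.04. The median was 0.03 among the 818 genes from 100 to 300 signal units, which hold Pdia4 and Ddit3.

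Of the stress transcription factors, Ddit3 could be measured. Its only probe set, U30186_at, had a log2 ratio of -0.48, and 203 genes (8.04%) lay lower. In the immobilized rat its signal was under the 70th percentile of all signals, so the ratio is less secure than those of the brighter chaperones. Ddit3 and Hspa5 are both widely measured as markers of the unfolded protein response, and at their brightest probe sets both had the lower signal in the immobilized rat. The other Hspa5 probe set with a ratio was nearly level at 0.02. Of 36 other endoplasmic reticulum genes described below, 21 were below 0 and 15 above, among the latter Hyou1 at 0.67 and Dnajb9 at 0.10. Whether the response itself differed was not tested.

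As a group, 6 of the 9 genes had a log2 ratio below 0, beside 50.6% of all 2524 genes, with a median of -0.16 against -0.01 over all genes. This count was 5 of 9 after quantile normalization or loess and 7 of 9 with probe sets averaged. Counted by probe set, 14 of 21 were below 0 and the median was -0.20. At 2-fold there were 0 of the 21, beside 1.88% of 3401 named probe sets at least 2-fold higher and 0.794% at least 2-fold lower. Of the 21, 12 lay within 1 technical SD of 0, 9 lay farther below, M14050_s_at of Hspa5 only just, and 0 farther above. Over the 3401 named probe sets these shares were 60.7%, 17.7% and 21.6%. The 6 bright control probe sets for beta-actin and GAPDH were also lower in the immobilized rat. Their log2 ratios ran from -0.50 at the 5' end of beta-actin to -0.30, with -0.35 at the 3' end of beta-actin. A further GAPDH control probe set, with low signals of 43.4 in the control rat and 66.3 in the immobilized rat, had 0.61. Of the 9 spike-in probe sets above the floor, 7 were below 0, with a median of -0.21. The part of RNA quality in the members' values was not tested, and their median was -0.19 after quantile normalization and -0.16 after loess. None of the 9 genes was at 1.5-fold by its brightest probe set, beside 4.87% of all genes at least 1.5-fold lower and 8.36% at least 1.5-fold higher. These counts describe 1 pair of arrays, and probe sets of a gene share its RNA.

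**Figure D3:**
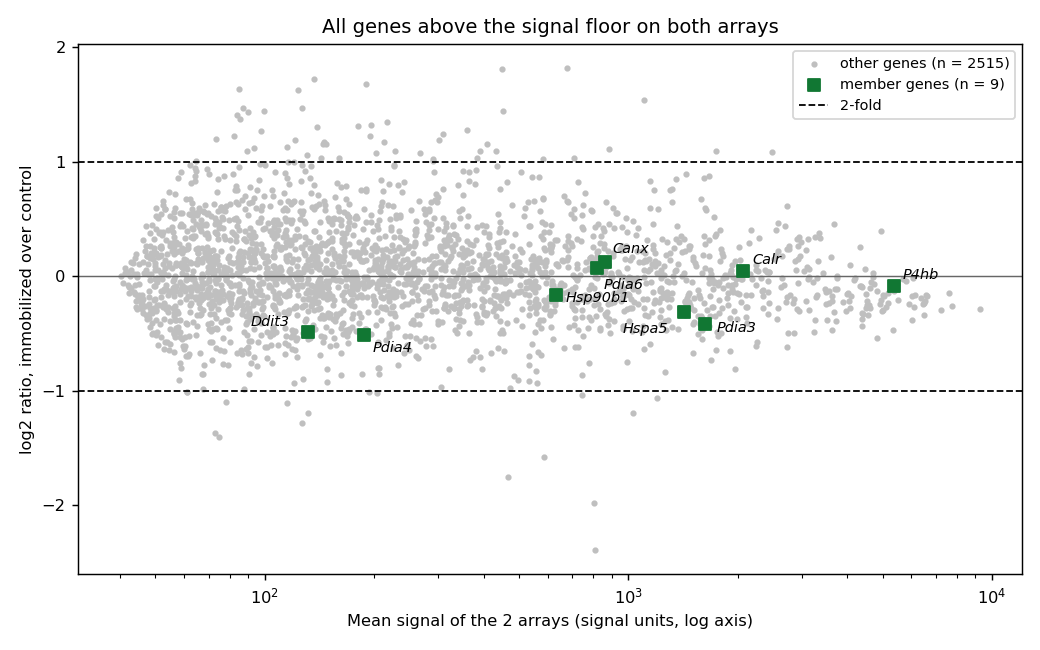
The log2 ratio of the immobilized over the control rat against the mean signal of the arrays (signal units, log axis) for the 2524 genes with a ratio, 1 point per gene. The 9 member genes (squares) lie between -0.52 and 0.13, inside the dashed lines that mark 2-fold.

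Other genes of the endoplasmic reticulum had signals close to each other in the 2 rats, with the lowest ratios among stress response genes. Of 107 further genes listed by function, 41 had a probe set, and 36 of these exceeded the floor in both rats. Of the 36, 15 had a log2 ratio above 0 and 21 below, beside 50.6% of all genes below 0. At 2-fold there was 1 of the 36, Ero1b, beside 2.02% of all genes at least 2-fold higher and 0.674% at least 2-fold lower. Ero1b encodes an oxidase that feeds disulfide bonds to the isomerases, and its signal was 43.0 in the control rat and 86.4 in the immobilized rat. This was 2.01-fold higher from a control signal just above the floor, and it was under 2-fold with the signals as deposited, after trimmed mean scaling, quantile normalization or loess, and under the floor at the 70th percentile. The median of the 36 was -0.06.

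Among other folding enzymes and co-chaperones 5 of 10 were above 0, with a median of 0.02. Besides Ero1b, Hyou1, the large Hsp70-like exchange factor of BiP, was 1.59-fold higher (226.3 to 359.8), although its other probe set had a log2 ratio of 0.20. Serpinh1, the collagen chaperone, was 1.56-fold lower, from 66.5 to 42.7, close to the floor. Fkbp2, a prolyl isomerase, had -0.32, and 0.16 at its other probe set.

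In translocation and N-glycosylation 6 of 10 genes were above 0, with a median of 0.05 and 0 at 1.5-fold. Sec62, a subunit of the translocation machinery, had a log2 ratio of 0.48 and Sec61b, a subunit of the channel, 0.24. Dad1 and Rpn2, subunits of the oligosaccharyltransferase, had -0.36 and -0.21. For Dad1 all 3 probe sets were lower, from -0.36 to -0.24.

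All 5 measured genes of degradation and export were below 0 by their brightest probe sets, beside 50.6% of all genes, with a median of -0.14 and 0 at 1.5-fold. Lman1, a cargo receptor for glycoproteins, had -0.38, Sec31a, a coat protein of export vesicles, -0.14, Tmed10, a receptor of these vesicles, -0.14, and Vcp, an ATPase that pulls proteins out for degradation, -0.05. For Sec31a the other probe sets went the opposite way, at 1.09 and 1.24, so its direction is unsettled.

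In the unfolded protein and integrated stress response, 7 of 11 genes were below 0, beside 50.6% of all genes, with a median of -0.37. At 1.5-fold 3 of the 11 were lower and 1 higher, beside 4.87% and 8.36% of all genes. Atf3, a transcription factor downstream of ATF4, was 1.82-fold lower (209.0 to 115.1), Gadd45a, a growth arrest gene, 1.76-fold lower (502.6 to 286.3) and Cebpg, a partner of ATF4, 1.60-fold lower (139.7 to 87.1). For Gadd45a the other probe sets above the floor had -0.53 and -0.52. Cebpb, a dimer partner of CHOP, was 1.62-fold higher (75.7 to 123.0). Eif2ak3, which encodes PERK, had -0.50 and Ppp1r15a, which encodes the phosphatase subunit that restores translation, -0.40, both chosen here after their values were seen. Trib3, a CHOP target named in the same way, had 0.15 at one probe set and -0.44 at the other.

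**Figure D4:**
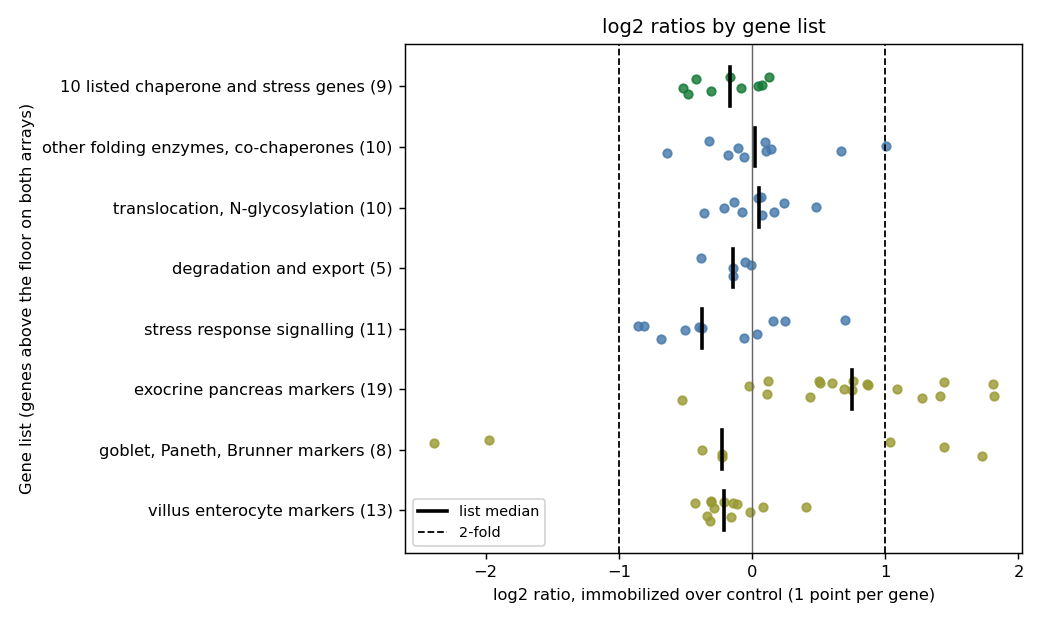
The log2 ratio of the immobilized over the control rat for each gene whose signals both exceeded the floor, by gene list, with the number of genes in brackets, the list median as a black bar and 2-fold as dashed lines. The chaperone and stress genes have a median of -0.16 and the stress response genes one of -0.37, and the exocrine pancreas markers lie mostly above 0 with a median of 0.75.

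Markers of other secretory cells differed between the rats in the same RNA. Of 21 exocrine pancreas markers with a probe set, 19 exceeded the floor in both rats. Of the 19, 17 had a log2 ratio above 0, beside 1246 of all 2524 genes, and 6 were at least 2-fold higher, beside 2.02%. The summed signal of the 21 was 9984 in the control rat and 16093 in the immobilized rat. Goblet, Paneth and Brunner gland markers went both ways, with 3 of 8 at least 2-fold higher and 2 at least 2-fold lower, beside 2.02% and 0.674% of all genes. The higher ones were Lyz2, Pla2g2a and RatNP-3b and the lower ones Reg3b and Reg3g, named after their values were seen. Muc2, Tff3 and Zg16 had -0.23, -0.23 and -0.38, and Tff2, Tff1 and Defa5 were under the floor. The list summed to 19914 and 15562 over the 11 with a probe set, a sum that mixes these cell types. Villus enterocyte markers had 11 of 13 below 0, beside 50.6% of all genes, with a median of -0.21 and sums of 62551 and 54678. Many of them are bright, and of all genes with a mean signal of 3000 or more 82.9% were below 0, with a median of -0.16. Smooth muscle markers had 3 of 5 above 0 and sums of 454.6 and 741.3, but 364.3 and 452.3 without Acta2, whose other probe set with a ratio had -0.13. Of the plasma cell and B cell markers 2 had a probe set and 1, Sdc1, was above the floor (-0.54). None of these markers had a deposited signal of 0, and their part in the chaperone and stress gene values was not tested.

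The measured members with the stress response element in their window lay on both sides of 0 at their brightest probe sets, at most about 1 technical SD from it. The log2 ratios were -0.31 for Hspa5, -0.16 for Hsp90b1 and 0.05 for Calr. Other probe sets had 0.02 for Hspa5, -0.51 and -0.33 for Hsp90b1, and -0.15 and 0.21 for Calr, so the direction of Hspa5 and Calr is unsettled. Genes outside the list with a match and a probe set were Ero1b at 1.01, Hnrnpa3, an RNA-binding protein gene, at 0.22, and Foxd4, a forkhead gene under the floor in both rats. The measured members without an exact match in the windows described had -0.52 for Pdia4, -0.48 for Ddit3 and -0.09 for P4hb. Genes with and without a match were not tested against each other.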

How the data were processed

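The authors deposited 1 linear signal intensity per probe set and array. The series' design text names the manufacturer's software, version 4.0, with filtering and normalization routines, whereas the submitters' processing notes name MAS5, so the algorithm is unsettled. The 2% trimmed mean signals were alike (216.0 and 215.9), as scaled arrays are. Detection calls were not used here.

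The array annotation gave 1 gene symbol for 7006 of 8799 probe sets, several for 308 and none for 1426, and 59 more were array controls. Symbols of 6985 were updated by gene ID, and the genes were formed from probe sets with 1 symbol only. Signals of the immobilized array were multiplied by 1.016, which brought the median log2 ratio over the probe sets brighter than the floor to 0. A floor was placed at the 50th percentile of the pooled signals, and a ratio needed both signals over it. Taking the brightest probe set of each gene gave 4736 genes, 2524 of them above the floor on both arrays. Across probe sets, which are no replicates, the arrays had a Spearman correlation of 0.96. Spike-in RNAs had a median log2 ratio of -0.21 over 9 probe sets (-0.55 to 0.16).

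Every member probe set was named, with up to 4 genes farthest from 0, and any at 2-fold, of each further endoplasmic reticulum list, and at most 1 gene of each marker list; other genes were named after their values were seen. The members and lists were chosen with earlier results of these data known. Alternatives were, for the scaling, loess (span 0.3), quantile normalization, 2% trimmed mean scaling or none; for the floor, the 30th or 70th percentile; for a gene, its probe sets averaged; and for the fold, 1.5 or 3; leaving out Canx was added after seeing the data. A promoter window of 1 listed gene is not reported here. Ratios and counts were tested on simulated data. The tools were matplotlib 3.10.9, statsmodels 0.14.6, scipy 1.17.1, pandas 2.3.3 and numpy 2.4.6 under Python 3.11.15.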

Additional observations from a re-analysis of the deposited data

How the results depend on the processing

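No member gene was at 2-fold under any of the alternatives, nor at 1.5-fold or 3-fold by its brightest probe set. The members' median log2 ratio stayed below 0 under every scaling, floor and probe set rule tried, from -0.19 to -0.11, and was -0.24 without Canx. The median over their probe sets ran from -0.22 to -0.16 under the scalings and floors, with -0.18 without Canx. Of 30 log2 ratios of member genes and probe sets, 3 changed sign under an alternative. These were Canx, at -0.35 with probe sets averaged, and P4hb with its probe set X02918_at, at 0.02 after quantile normalization and 0.04 after loess. Pdia3 had -0.08 with probe sets averaged. Ddit3 had no ratio with the floor at the 70th percentile.

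Of the other endoplasmic reticulum genes, the count at 2-fold higher was 0 in place of 1 after loess, quantile normalization, trimmed mean scaling or no rescaling, at a 3-fold threshold, or under the 70th percentile floor. At 1.5-fold, 3 of the 36 were higher and 4 of the 36 lower, beside 8.36% and 4.87% of all genes. Over all genes, 110 were at 2-fold higher and 71 lower under the 30th percentile floor, and 22 and 9 under the 70th. At 1.5-fold the counts were 211 and 123, and at 3-fold 6 and 3. The changes in count with floor and threshold follow from the genes each admits, and the causes of the others were not tested. No paired analysis was possible because each group has 1 array. Signal over background limits Serpinh1, Ero1b and the second Pdia3 probe set, whose signals were close to the floor.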
